A study of Mus musculus with 32 samples.

Results

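The 10 genes of cell division and DNA repair, Prr11, Dscc1, Mybl1, Sapcd2, Depdc1a, Rad51ap1, Troap, Polq, Ercc6l and Cenpw, were followed in lung RNA of 16 mice. They are 10 of the 26305 genes that carry an Ensembl identifier of their own in the deposited table, which holds 54640 genes and assembled loci in all. The 10 were selected on measured FPKM values of these same mice, and which comparison weighed most is not recorded. Their levels and differences between groups are therefore given as a description, and nothing was tested on them as a set. All mice were wild-type (WT) male C57BL/6J, bought at 6 to 8 weeks of age, and each of the 4 groups held 4 mice. The control mice received neither dust nor drug. The WTCPM mice had World Trade Center particulate matter, settled dust gathered at Ground Zero, instilled into the nose. The rosoxacin mice received the same dust and an intraperitoneal injection of rosoxacin, a quinolone antibacterial, at 5 mg/kg. The dexamethasone mice received the dust and an intraperitoneal injection of dexamethasone, a synthetic glucocorticoid, at 0.1 mg/kg. The sources used here do not give the dust dose, the vehicle of the control mice or the time of harvest.

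Most cells of an adult lung are not dividing. A cell that enters the cycle copies its DNA in S phase, holds the sister copies together with cohesin, assembles kinetochores on its centromeres, and separates the copies on the spindle in mitosis. Breaks that arise during copying are repaired by homologous recombination or by end joining. The mRNAs of many mitotic genes are made late in the cycle, and their promoters often carry a cell cycle homology region (TTTGAA) near a CCAAT box. Levels of such mRNAs in whole lung follow both the number of dividing cells and the RNA in each of them, and in bulk samples fewer cells of a type and less RNA per cell cannot be told apart.

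The promoters of 7 of the 10 genes were matched by symbol to RefSeq windows of 300 bases on GRCm38.p6, from 250 before to 50 after the annotated start. Dscc1, Mybl1 and Ercc6l had no window. Those of Depdc1a and Cenpw are shown because they hold both letter patterns close to the start, Prr11 because it holds CCAAT several times, and Rad51ap1 because it is the repair gene with the highest level. Each line gives the 130 bases before the RefSeq start, 5′ to 3′ on the gene's strand, and capitals mark CCAAT or TTTGAA on either strand (ATTGG and TTCAAA on the other). Depdc1a lies at chr3:159495303-159495432 on the plus strand, Cenpw at chr10:30200541-30200670, Prr11 at chr11:87108715-87108844 and Rad51ap1 at chr6:126939588-126939717, the last 3 on the minus strand.
Depdc1a: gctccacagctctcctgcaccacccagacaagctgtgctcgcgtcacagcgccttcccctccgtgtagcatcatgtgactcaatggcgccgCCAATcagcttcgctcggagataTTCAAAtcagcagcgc
Cenpw: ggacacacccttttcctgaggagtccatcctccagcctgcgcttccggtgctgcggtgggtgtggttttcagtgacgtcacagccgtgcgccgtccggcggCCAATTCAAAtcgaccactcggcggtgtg
Prr11: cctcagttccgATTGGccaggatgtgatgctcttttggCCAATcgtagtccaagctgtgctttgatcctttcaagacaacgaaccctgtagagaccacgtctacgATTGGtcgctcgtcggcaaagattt
Rad51ap1: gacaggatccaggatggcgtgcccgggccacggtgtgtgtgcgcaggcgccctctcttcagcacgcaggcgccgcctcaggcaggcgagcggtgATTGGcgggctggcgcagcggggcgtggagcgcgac

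In Depdc1a the CCAAT ended 35 bases before the start and the TTTGAA match, on the opposite strand, ended 11 bases before it. In Cenpw the 2 matches shared 1 base, CCAAT ending 25 and TTTGAA ending 20 bases before the start. Over the full windows and both strands, CCAAT was present in 5 of 7 (Depdc1a, Rad51ap1, Cenpw, Prr11 and Troap), against 37.4% of all 32851 RefSeq windows of that length. TTTGAA was present in 4 of 7 (Depdc1a, Cenpw, Prr11 and Polq), against 17.9%. Both patterns stood in the windows of Depdc1a, Cenpw and Prr11, 3 of 7, against 6.95%. The 4 spellings TTTCCCGC, TTTCGCGC, TTTGCCGC and TTTGGCGC of an E2F site were in none of the 7 windows and in 2.26% of all. With 7 windows these shares are descriptions, and a match of letters is not a bound site.

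On mm10, with GENCODE M21 coordinates, the genes are spread over 9 chromosomes. Prr11 lies at chr11:87089153-87108708, Mybl1 at chr1:9667415-9700209, Rad51ap1 at chr6:126923050-126939587, Ercc6l at chrX:102141716-102157091 and Cenpw at chr10:30194569-30200560, all on the minus strand. Sapcd2 lies at chr2:25372321-25378213, Depdc1a at chr3:159495433-159529955 and Polq at chr16:37011786-37095417 on the plus strand. Dscc1 (chr15:55076099-55090491, minus) and Troap (chr15:99074575-99083409, plus) share a chromosome but not a neighbourhood. Dscc1 shares 199 exon bases (4.49%) with the antisense gene Gm41325, and Troap shares 95 (2.7%) with the antisense gene Gm34284. The sources used here do not say whether counting used strand, so reads of these pairs could not be told apart. The start of Prr11 is 526 bases from that of Ska2, a spindle and kinetochore gene on the opposite strand.

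The deposited unit is FPKM, a level per transcript length and per mapped fragments of each library. Transcripts were summed per gene and the 2 sequencing lanes of each mouse were averaged, so n is the number of mice. All 10 genes were low. Their means over the 16 mice ran from 0.124 FPKM for Depdc1a through 0.417 FPKM for Ercc6l to 0.596 FPKM for Rad51ap1. These levels still placed them between rank 2359 (Depdc1a) and rank 225 (Rad51ap1) of the 26305 genes, because 0.114% of all FPKM fell on genes with an Ensembl identifier and the rest on assembled loci without a name. All 10 passed the filter, an average of 0.1 FPKM or more across the 16 mice, which 2749 genes met. Depdc1a (0.0436 FPKM) and Cenpw (0.0967 FPKM) averaged under that limit in the control mice, so they passed through the exposed groups. One transcript carried all of the signal of Prr11, Depdc1a and Ercc6l, 91.7% of that of Mybl1 and 45.8% of that of Dscc1.

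The total FPKM of a mouse ranged from 704683 to 1329954, and the sources used here give no read counts, so the depth of a library is unknown. The rosoxacin libraries carried library numbers 1 to 4 in the labels and the other groups numbers from 5 to 23, so rosoxacin and these numbers cannot be told apart. Rosoxacin lungs were also lower over all tested genes, with a median log2 difference of -0.16 from WTCPM. The label lung could not be checked with stromal markers, since 0 of 16 fibroblast, muscle and mesothelium markers have their own identifier in the table.

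The 2 lanes of a mouse share a library number in the labels, and their differences show part of the measurement error within the spread between mice. Ercc6l and Prr11 repeated best: for Ercc6l the lanes differed by a median of 0.206 on the log2(FPKM + 0.1) scale, and for Prr11 by 0.153. Dscc1 repeated worst, with a median lane difference of 1.07 and 5 of 32 lane samples listed at 0. For Dscc1 the lane differences imply an SD of 0.692 for a mean of 2 log2 values. The spread between mice of a group, taken on the log2 of averaged FPKM, was smaller (SD 0.366). The order was the same, narrowly, for Sapcd2 (0.367 against 0.352) and Cenpw (0.311 against 0.296). For Rad51ap1 the 2 SDs were about equal (0.349 against 0.354). They are unlike measures, so these values do not show whether lane error exceeds the spread between mice. Depdc1a was listed at 0 in 6 of 32 lane samples, Troap in 2 and Cenpw in 1. The other 6 genes were above 0 in every lane sample.

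**Figure D1:**
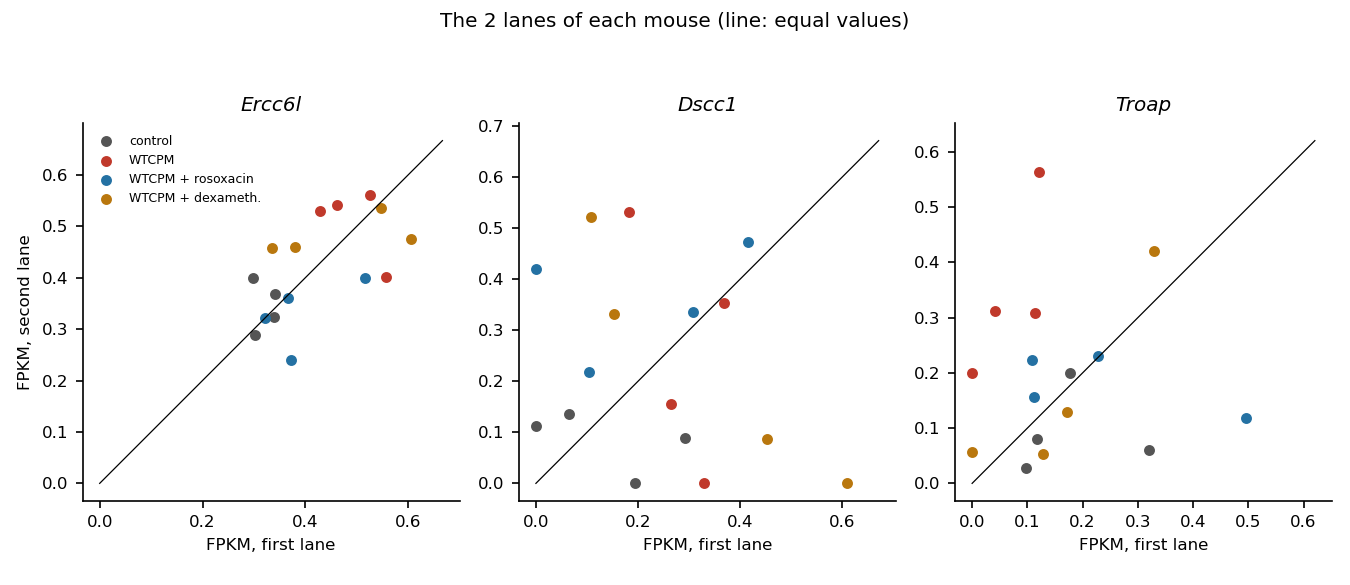
FPKM of Ercc6l, Dscc1 and Troap in the first lane (x axis) and the second lane (y axis) of each of the 16 mice, coloured by group, with the line of equal values. Ercc6l lies along the line (median lane difference 0.206 on the log2 scale), while Dscc1 (1.07) and Troap (0.636) scatter widely and include lane samples listed at 0.

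The first comparison, WTCPM against control, asks what the dust did. All 10 genes were higher in mean in the WTCPM lungs (53.4% of all tested genes had a log2 difference above 0), by 1.51-fold (Ercc6l) to 4.70-fold (Depdc1a). In limma's moderated test over 2749 genes, none of the 10 passed an adjusted p of 0.05 (lowest 0.324, for Prr11 and Rad51ap1), as was the case for all tested genes (0%). At an unadjusted p under 0.05, 7 of the 10 were higher, where 2.95% of all tested genes were higher and 5.13% differed either way. For 5 of the 10 every WTCPM mouse lay above every control mouse, a pattern that 1.86% of all tested genes showed. These counts describe genes picked with these values known, so no inference is drawn from them.

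Among the kinetochore and spindle genes, Depdc1a, whose product acts in mitotic progression, had the highest ratio of means. It measured 0.0276, 0.0333, 0.0898 and 0.0235 FPKM in the control mice and 0.254, 0.297, 0.144 and 0.124 FPKM in the WTCPM mice. The groups did not overlap, although control mouse 3 stood well above the other controls. The log2 difference was 1.07 (SE 0.31, limma adjusted p = 0.356), on the log2(FPKM + 0.1) scale used throughout, which understates ratios of genes this low.

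Ercc6l encodes PICH, a DNA translocase that coats the ultrafine bridges between separating sister chromatids. Its control values were 0.295, 0.349, 0.355 and 0.331 FPKM, and its WTCPM values were 0.543, 0.479, 0.479 and 0.502 FPKM. Both groups were tight and did not overlap, and this smallest fold of the 10 also had the smallest SE (log2 difference 0.48, SE 0.17, limma adjusted p = 0.715).

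Cenpw, a histone-fold protein of the inner kinetochore, measured 0.0818, 0.0706, 0.112 and 0.122 FPKM in controls and 0.119, 0.28, 0.171 and 0.151 FPKM under WTCPM. WTCPM mouse 1 fell just below control mouse 4, and the other 3 lay above all controls. The log2 difference was 0.49 (SE 0.26, limma adjusted p = 0.894).

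Troap, or tastin, is needed for spindle assembly. It measured 0.099, 0.0631, 0.188 and 0.19 FPKM in controls and 0.343, 0.0996, 0.211 and 0.176 FPKM in WTCPM mice. The groups overlapped broadly, and the log2 difference (0.37, SE 0.36) was about the size of its error. Its sign depended on the lane: it was -0.73 in the first lane alone and 1.23 in the second.

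Sapcd2 encodes a regulator of spindle orientation. Controls measured 0.295, 0.152, 0.298 and 0.182 FPKM and WTCPM mice 0.327, 0.378, 0.561 and 0.3 FPKM. The groups were apart by a hair, since the lowest WTCPM mouse (0.3 FPKM) barely exceeded the highest control (0.298 FPKM), and the log2 difference was 0.57 (SE 0.26, limma adjusted p = 0.894).

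Prr11 encodes a proline-rich protein linked to cell cycle progression. It measured 0.157, 0.0892, 0.256 and 0.202 FPKM in controls and 0.566, 0.338, 0.334 and 0.417 FPKM in WTCPM mice. All WTCPM mice lay above all controls, and the log2 difference was 0.91 (SE 0.24, limma adjusted p = 0.324).

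Of the genes of DNA copying and repair, Rad51ap1, a cofactor of strand exchange in homologous recombination, was the most abundant and the most clearly separated. Controls measured 0.421, 0.225, 0.316 and 0.408 FPKM and WTCPM mice 0.647, 0.673, 0.85 and 0.718 FPKM. No mouse overlapped, and the log2 difference was 0.91 (SE 0.25, limma adjusted p = 0.324).

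Polq encodes DNA polymerase theta, which joins broken ends through short shared sequences. It measured 0.224, 0.187, 0.225 and 0.543 FPKM in controls and 0.43, 0.421, 0.334 and 0.736 FPKM in WTCPM mice. Control mouse 4 exceeded 3 of the 4 WTCPM mice, and without it the log2 difference went from 0.59 (SE 0.29) to 0.85.

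Dscc1 is part of an alternative clamp loader that supports sister chromatid cohesion. It measured 0.0969, 0.19, 0.101 and 0.0567 FPKM in controls and 0.21, 0.357, 0.361 and 0.165 FPKM in WTCPM mice. Only WTCPM mouse 4 lay within the control range, and the log2 difference was 0.82 (SE 0.27, limma adjusted p = 0.614). In single lanes, which agreed poorly, the group difference was 0.86 in the first and 0.74 in the second. Dscc1 was selected on values of these same mice, so the like sign adds no support.

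Mybl1 encodes A-Myb, a transcription factor of the Myb family that is best known from male meiosis and germinal centre B cells. It measured 0.196, 0.317, 0.342 and 0.567 FPKM in controls and 0.683, 0.446, 0.698 and 0.588 FPKM in WTCPM mice. Control mouse 4 was above WTCPM mouse 2 and below the other 3, and the log2 difference was 0.67 (SE 0.27, limma adjusted p = 0.801).

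**Figure D2:**
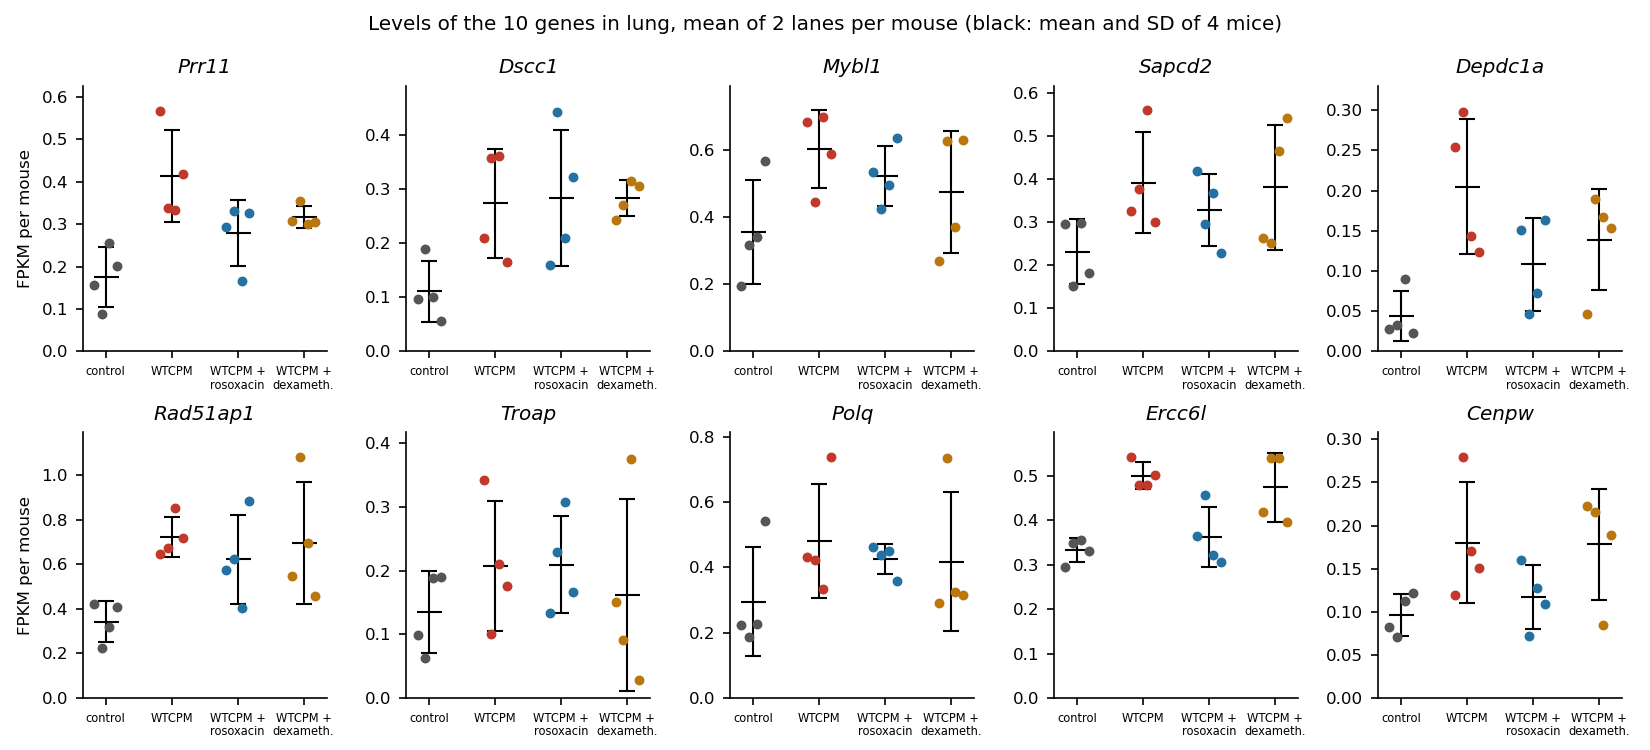
FPKM of each of the 10 genes (y axis, linear from 0) in the 4 groups of 4 mice, 1 point per mouse, with the mean and SD of each group in black. Prr11, Sapcd2, Depdc1a, Rad51ap1 and Ercc6l have all 4 WTCPM mice above all 4 control mice, whereas Mybl1, Troap, Polq and Cenpw overlap in every pair of groups.

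Summed over the 10 genes, the control mice held 2.12 ± 0.421 FPKM (SD, n = 4) and the WTCPM mice 3.98 ± 0.185 FPKM. A score per mouse, the mean log2(FPKM + 0.1) over the 10 genes, was -1.91, -2.01, -1.68 and -1.66 in controls and -1.07, -1.14, -1.09 and -1.20 in WTCPM mice. The WTCPM mice spread less (SD 0.06) than the controls (SD 0.17). The median of the 10 log2 differences was 0.63, against 0.03 for all tested genes. With each mouse's median over all tested genes subtracted, controls scored from -0.32 to -0.08 and WTCPM mice from 0.45 to 0.53.

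Markers of other cell types differed between the same groups. The adipocyte markers with an identifier of their own, Hcar1 and Lep (2 of 10), summed to 0.366 to 1.9 FPKM in controls and 0.0953 to 0.137 FPKM in WTCPM lungs. The eosinophil, basophil and mast cell markers (9 of 11) summed to 0.58 to 1.28 FPKM in controls and 0.283 to 0.443 FPKM in WTCPM lungs. Xcr1, a dendritic cell receptor and 1 of 19 macrophage and dendritic cell markers, went the other way, from 0.374 to 0.458 FPKM in controls against 0.526 to 0.637 FPKM in WTCPM lungs. The neutrophil markers (5 of 15, with Mpo at 0 in every mouse) overlapped, at 0.479 to 1.07 FPKM and 0.606 to 0.924 FPKM. Prox1, 1 of 12 endothelial markers (0.137 to 0.537 FPKM and 0.394 to 0.6 FPKM), overlapped too. T cell (0 of 17) and NK cell (0 of 8) markers have no identifier of their own, and Klf1 was the 1 of 14 for erythroid cells and megakaryocytes (0 to 0.121 and 0 to 0.213 FPKM). Of these markers, 2 of the 5 neutrophil genes and 2 of the 9 eosinophil, basophil and mast cell genes averaged 0.1 FPKM or more. The part of all these cell types in the values of the 10 genes was not tested.

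**Figure D3:**
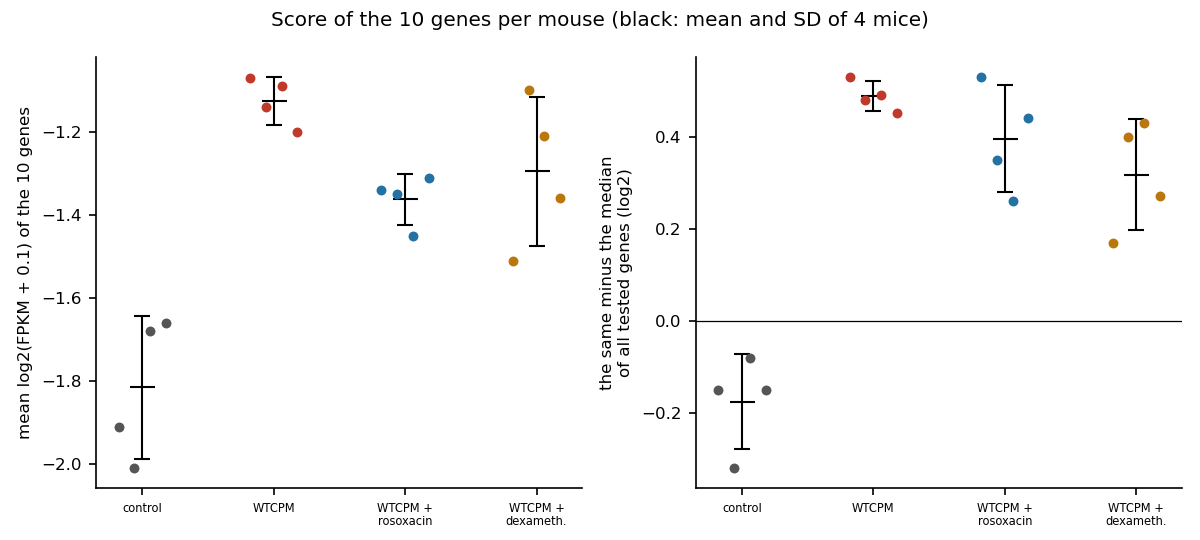
Score of the 10 genes per mouse (left, mean log2(FPKM + 0.1)) and the same score minus the median of all tested genes in that mouse (right, log2), with the mean and SD of 4 mice in black. Control mice lie between -2.01 and -1.66 on the left, below all 12 exposed mice, and on the right the rosoxacin mice (0.26 to 0.53) overlap the WTCPM mice (0.45 to 0.53).

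The second comparison asks what rosoxacin did in dust-exposed lungs, and it shares the WTCPM mice with the first. In mean, 8 of the 10 genes were lower with rosoxacin than with WTCPM alone and Dscc1 and Troap were about level, while 36.3% of all tested genes had a difference above 0. The score was -1.34, -1.35, -1.45 and -1.31, below each of the 4 WTCPM mice. The median difference of the 10 genes was -0.21, close to the -0.16 of all tested genes. None of the 10 passed in limma's test (adjusted p from 0.277 to 0.982), where 0.546% of all tested genes did, and Ercc6l was the 1 gene lower at an unadjusted p under 0.05, where 12.3% of all tested genes were. After the median of all tested genes was subtracted, the score was 0.53, 0.35, 0.26 and 0.44 in the rosoxacin mice, which overlapped the WTCPM mice (0.45 to 0.53).

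Ercc6l and Prr11 were the 2 of 10 whose rosoxacin mice all lay below all WTCPM mice, as did 8.95% of all tested genes. Ercc6l measured 0.364, 0.458, 0.321 and 0.306 FPKM with rosoxacin, with mice 3 and 4 inside the control range of 0.295 to 0.355 FPKM and mouse 1 just above it. Its log2 difference from WTCPM was -0.39 (SE 0.17, limma adjusted p = 0.277), of which -0.23 remained relative to the median gene. After rescaling to TPM it was -0.77 and passed (adjusted p = 0.0453), while the median of all tested genes moved to -0.44 and 260 of 3064 passed.

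Prr11 measured 0.292, 0.33, 0.165 and 0.326 FPKM with rosoxacin (log2 difference -0.45, SE 0.24). Mice 2 and 4 lay just under its WTCPM minimum of 0.334 FPKM and mouse 3 far below it, and without mouse 3 the difference was -0.28. Depdc1a measured 0.151, 0.0468, 0.0721 and 0.163 FPKM, with 2 mice inside the WTCPM range and 2 below it (-0.55, SE 0.31). Cenpw measured 0.16, 0.0723, 0.127 and 0.109 FPKM, and overlapped both the control and the WTCPM mice (-0.35, SE 0.26). With Ercc6l, these had the 4 lowest differences from WTCPM among the 10 genes.

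The repair genes and Dscc1 differed from WTCPM by -0.22 (Rad51ap1) to 0.02 (Dscc1). Rad51ap1 measured 0.575, 0.625, 0.403 and 0.885 FPKM with rosoxacin, so that its highest mouse exceeded every WTCPM mouse and its lowest fell inside the control range. Polq measured 0.461, 0.436, 0.449 and 0.358 FPKM, all within the WTCPM range (log2 difference -0.10, SE 0.29). Dscc1 measured 0.16, 0.443, 0.21 and 0.322 FPKM, and its difference from WTCPM (0.02, SE 0.27) turned from -0.57 in the first lane to 0.62 in the second.

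The remaining 3 genes overlapped WTCPM too. Mybl1 measured 0.534, 0.423, 0.496 and 0.637 FPKM with rosoxacin (log2 difference -0.17, SE 0.27). Sapcd2 measured 0.42, 0.295, 0.369 and 0.229 FPKM (-0.19, SE 0.26), and Troap 0.134, 0.229, 0.307 and 0.166 FPKM (0.03, SE 0.36). The Troap difference turned from 0.93 in the first lane to -0.62 in the second. Whether the 10 genes were lower or level turned on the scaling: with median-of-ratios scaling the median of the 10 was -0.01 and 4 of 10 were above 0, and with TPM it was -0.59 and none was, against medians of all tested genes of 0.00 and -0.44. In the rosoxacin lungs the neutrophil markers summed to 0.837 to 1.69 FPKM, Xcr1 to 0.301 to 0.469 FPKM, the eosinophil, basophil and mast cell markers to 0.354 to 0.662 FPKM and the adipocyte markers to 0.127 to 0.53 FPKM, and their part in the values was not tested.

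**Figure D4:**
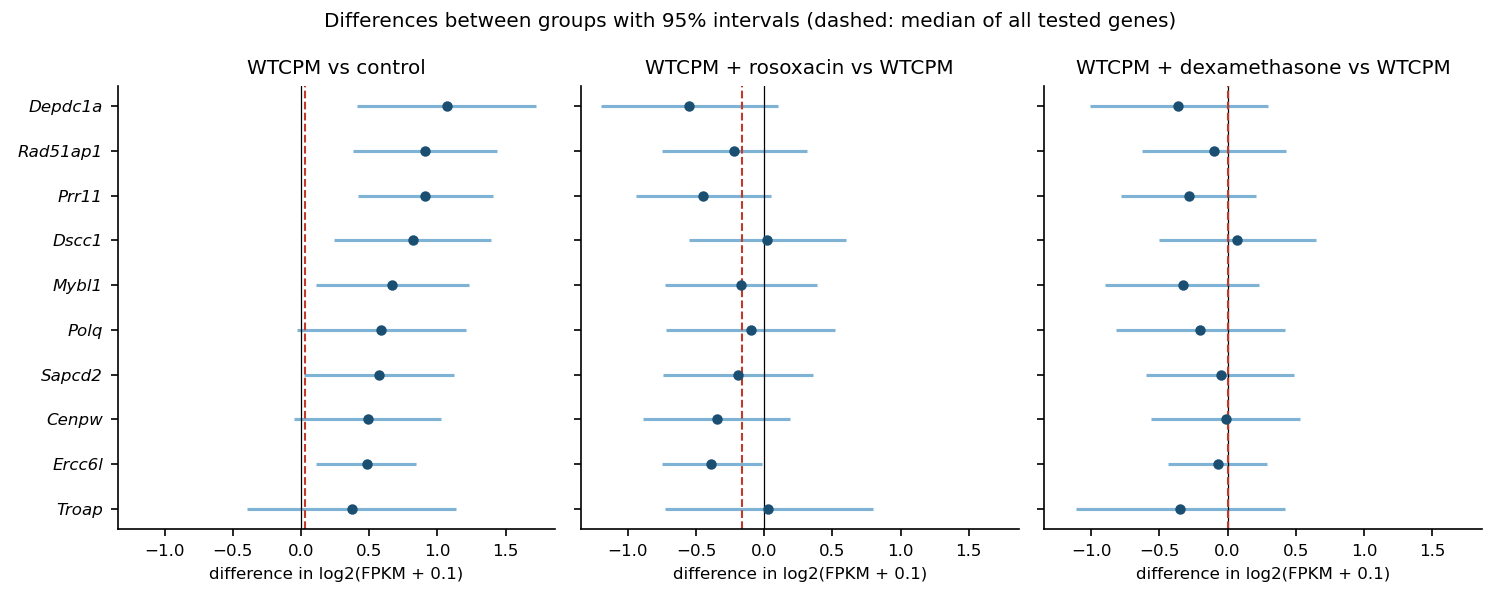
Log2 difference (x axis, log2(FPKM + 0.1) scale) of each of the 10 genes for WTCPM against control and for each drug with dust against WTCPM, with 95% intervals from limma; the dashed line is the median of all tested genes. All 10 lie above 0 in the first panel, from 0.37 for Troap to 1.07 for Depdc1a, and in the other panels the intervals include 0 except for Ercc6l with rosoxacin.

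For dexamethasone-treated lungs set against the WTCPM lungs, 9 of the 10 differences were below 0 and 1 above, where 50.6% of all tested genes were above 0. The score was -1.51, -1.10, -1.21 and -1.36, and the summed level was 3.52 ± 0.665 FPKM (SD, n = 4), overlapping the WTCPM mice. The median difference of the 10 genes was -0.15, against 0.00 for all tested genes. None of the 10 passed in limma's test (0% of all tested genes did; adjusted p from 0.95 to 0.994) and none had an unadjusted p under 0.05 (5.38% of all tested genes). In none of the 10 did the 2 groups stand apart, a pattern shown downwards by 2.33% and upwards by 1.75% of all tested genes. The 95% intervals still reached from -1.11 (Troap) to 0.65 (Dscc1), so differences within these bounds were not excluded.

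Within the dexamethasone group the mice were uneven. Depdc1a measured 0.0471, 0.189, 0.167 and 0.153 FPKM, with mouse 1 inside the control range and the others within the WTCPM range. Rad51ap1 measured 0.547, 1.08, 0.695 and 0.458 FPKM, and Polq 0.292, 0.735, 0.323 and 0.315 FPKM, with mouse 2 highest in both. Prr11 was tight, at 0.307, 0.355, 0.3 and 0.304 FPKM.

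Ercc6l measured 0.419, 0.54, 0.541 and 0.397 FPKM with dexamethasone, around its WTCPM level. Dscc1 measured 0.242, 0.27, 0.314 and 0.305 FPKM and Cenpw 0.223, 0.216, 0.0845 and 0.189 FPKM, with means 1.035 and 0.988 times those of WTCPM. Sapcd2 measured 0.264, 0.252, 0.466 and 0.541 FPKM, split into a low and a high pair. Mybl1 measured 0.27, 0.628, 0.372 and 0.63 FPKM. Troap measured 0.15, 0.0906, 0.375 and 0.0288 FPKM, and it spread widest of the 10 relative to its mean. The neutrophil markers stood at 1.29 to 2.39 FPKM in these lungs, above every control and WTCPM mouse, the eosinophil, basophil and mast cell markers at 0.507 to 0.653 FPKM, above every WTCPM mouse, Xcr1 at 0.398 to 0.7 FPKM and the adipocyte markers at 0.231 to 0.488 FPKM, and their part in the values was not tested.

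Set against the control mice, which the first comparison also used, the genes stayed higher in mean in both drug groups. With rosoxacin all 10 differences were above 0 (41.5% of all tested genes were), with a median of 0.48, against -0.11 for all tested genes. None of the 10 passed in limma's test (3.31% of all tested genes did), none had groups apart (2.15%), and Dscc1 (0.84, SE 0.27, adjusted p = 0.0974) and Rad51ap1 (0.69, SE 0.25, adjusted p = 0.134) were higher at an unadjusted p under 0.05, as were 4.51% of all tested genes. Dscc1 passed only when all loci entered the fit (adjusted p = 0.0495), and the share of all features that passed there is not reported here. Ercc6l (0.09, SE 0.17) and Cenpw (0.13, SE 0.26) were nearest to control. With the library number in the model the median of the 10 was 0.14 and 8 of 10 were above 0, without Mybl1 and Polq. After rescaling to TPM 8 of 10 were above 0, without Ercc6l and Cenpw, and after quantile normalisation 9, without Ercc6l.

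With dexamethasone all 10 differences from control were above 0 (9 after median-of-ratios scaling; 52.1% of all tested genes were), with a median of 0.49, against 0.02 for all tested genes. None of the 10 passed in limma's test (0.0364% of all tested genes did; adjusted p from 0.737 to 0.997), and 5 were higher at an unadjusted p under 0.05 (2.87%). For Prr11 (0.63, SE 0.24), Dscc1 (0.89, SE 0.27), Rad51ap1 (0.81, SE 0.25) and Ercc6l (0.40, SE 0.17) every dexamethasone mouse lay above every control mouse, as for 1.35% of all tested genes. Troap (0.02, SE 0.36) did not separate, and its sign turned in the first lane (-0.23).

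How alike the 10 genes were across the 16 mice was measured as the root mean square distance between each gene and the mean of the other 9, each centred and divided by its SD. Prr11 (0.57), Rad51ap1 (0.61) and Depdc1a (0.69) were closest to the rest, and Troap (1.25) was farthest, next to Cenpw (1.05) and Sapcd2 (1.01). Outside the 10, the named genes nearest to their score were Rgs1 (0.69), a regulator of G protein signalling in leukocytes, Lmod3 (0.71), an actin nucleator of muscle, Fbxo48 (0.77), an F-box protein, Kif14 (0.77), a mitotic kinesin, and Saa1 (0.78), an acute-phase protein, where the median of 931 named genes was 1.35. Rgs1 averaged 0.418 ± 0.146 FPKM in controls, 0.88 ± 0.284 with WTCPM, 0.4995 ± 0.0953 with rosoxacin and 0.729 ± 0.282 with dexamethasone (SD, n = 4). All these genes and the score share the same libraries, and only Kif14 is a gene of division.

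Other genes of the same processes came from 3 lists of 352 genes, written from knowledge of the pathways but with earlier results of these data known. Few could be read: 0 of 69 genes of the G1/S transition and DNA replication, 11 of 143 of mitosis, spindle and cytokinesis, and 6 of 140 of DNA damage response and repair have an identifier of their own in the table, and 10 of these 17 passed the filter. For WTCPM against control all 10 log2 differences were above 0 (53.4% of all tested genes were), from 0.02 (Dmc1) to 1.33 (Cenpm), with a median of 0.36 against 0.03 for all tested genes. None passed in limma's test (lowest adjusted p 0.356), as was the case for all tested genes (0%), and Cenpm and Kif14 were higher at an unadjusted p under 0.05, as were 2.95% of all tested genes. The signs of Ttk, Spdl1, Rmi2 and Dmc1 turned under some settings. In mean FPKM Dmc1 was lower with WTCPM (0.229) than in controls (0.247).

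Cenpm, a subunit of the constitutive centromere network, was the 1 gene of these lists that passed a comparison. It measured 0.283, 0.0308, 0 and 0 FPKM in controls, 0.213, 0.428, 0.183 and 0.324 FPKM with WTCPM, and 0.519, 0.535, 0.224 and 0.463 FPKM with rosoxacin. Control mouse 1 reached into the range of both groups, and control mice 3 and 4 are listed at 0. Its control mean lay under the filter of 0.1 FPKM, as did that of Rmi2, so both passed through the exposed groups. For rosoxacin against control, 7 of the 10 tested list genes were above 0 (41.5% of all tested genes were) and 3 below, down to -0.79 (Ttk). Cenpm was higher with rosoxacin than in control (log2 difference 1.79, SE 0.38, limma adjusted p = 0.0219), in a comparison where 3.31% of all tested genes passed.

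That call did not hold under every setting. The Cenpm difference was 2.41 with the library number in the model (adjusted p = 0.241), 1.66 in the first lane (0.307) and 1.98 in the second (0.129), and 1.79 with a mean above 0 FPKM as the filter (0.0952). The adjusted p lay between 0.0504 and 0.0574 without control mouse 3 or 4, or without rosoxacin mouse 1, 2 or 4. Without control mouse 1, Cenpm passed for WTCPM against control as well (1.78, adjusted p = 0.0382) and for dexamethasone against control (1.84, adjusted p = 0.025). With all mice the dexamethasone values of Cenpm were 0.414, 0.278, 0.228 and 0.274 FPKM (1.39, adjusted p = 0.737).

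Kif14, a kinesin of cytokinesis, measured 0.1, 0.0754, 0.144 and 0.135 FPKM in controls and 0.375, 0.217, 0.135 and 0.184 FPKM with WTCPM. Only WTCPM mouse 3 lay within the control range, and the log2 difference was 0.58 (SE 0.24, limma adjusted p = 0.801). With dexamethasone all 4 Kif14 values, 0.321, 0.295, 0.204 and 0.251 FPKM, were above all controls, and so were the rosoxacin values, 0.19, 0.146, 0.16 and 0.229 FPKM; 1.35% and 2.15% of all tested genes showed this in those comparisons.

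Aunip, a partner of the Aurora A kinase and of end resection, was apart in the first comparison. It measured 0.187, 0.221, 0.244 and 0.224 FPKM in controls and 0.361, 0.373, 0.39 and 0.381 FPKM with WTCPM. That pattern was shown by 1.86% of all tested genes, and the log2 difference was 0.58 (SE 0.34, limma adjusted p = 0.894). With rosoxacin Aunip was split, at 0.396 and 0.392 FPKM in mice 1 and 2 and 0.164 and 0.118 FPKM in mice 3 and 4. Ttk, the spindle checkpoint kinase MPS1, measured 0.283, 0.474, 0.176 and 0.557 FPKM with WTCPM and 0.157, 0.313, 0.0607 and 0 FPKM with rosoxacin (log2 difference -1.14, SE 0.39, limma adjusted p = 0.165). It passed after rescaling to TPM (-1.47, adjusted p = 0.043), where 260 of 3064 tested genes passed and the median of all was -0.44.

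The other tested genes with the highest means overlapped between control and WTCPM. Ccno, a cyclin of multiciliated cells, was 0.313 to 0.742 FPKM in controls, 0.596 to 0.903 FPKM with WTCPM, and 2.47, 1.41, 0.497 and 0.223 FPKM with rosoxacin. Psrc1, a microtubule regulator, was 0.318 to 0.513 FPKM in controls and 0.39 to 0.63 FPKM with WTCPM. Its dexamethasone mice (0.577 to 0.604 FPKM) all lay above the controls, as for 1.35% of all tested genes. That log2 difference from control was 0.46 (SE 0.21, limma adjusted p = 0.96). Spdl1, which recruits dynein to kinetochores, was 0.298 to 0.506 FPKM and 0.464 to 0.598 FPKM. The repair genes Dmc1, the meiotic recombinase, and Rmi2, a subunit of the BLM complex, had WTCPM minus control differences of 0.02 and 0.22. No gene of the 3 lists passed with rosoxacin or dexamethasone against WTCPM, where 0.546% and 0% of all tested genes passed. At an unadjusted p under 0.05, Ttk was lower with rosoxacin, as were 12.3% of all tested genes, and no gene of the lists differed with dexamethasone, where 5.38% of all tested genes did.

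**Figure D5:**
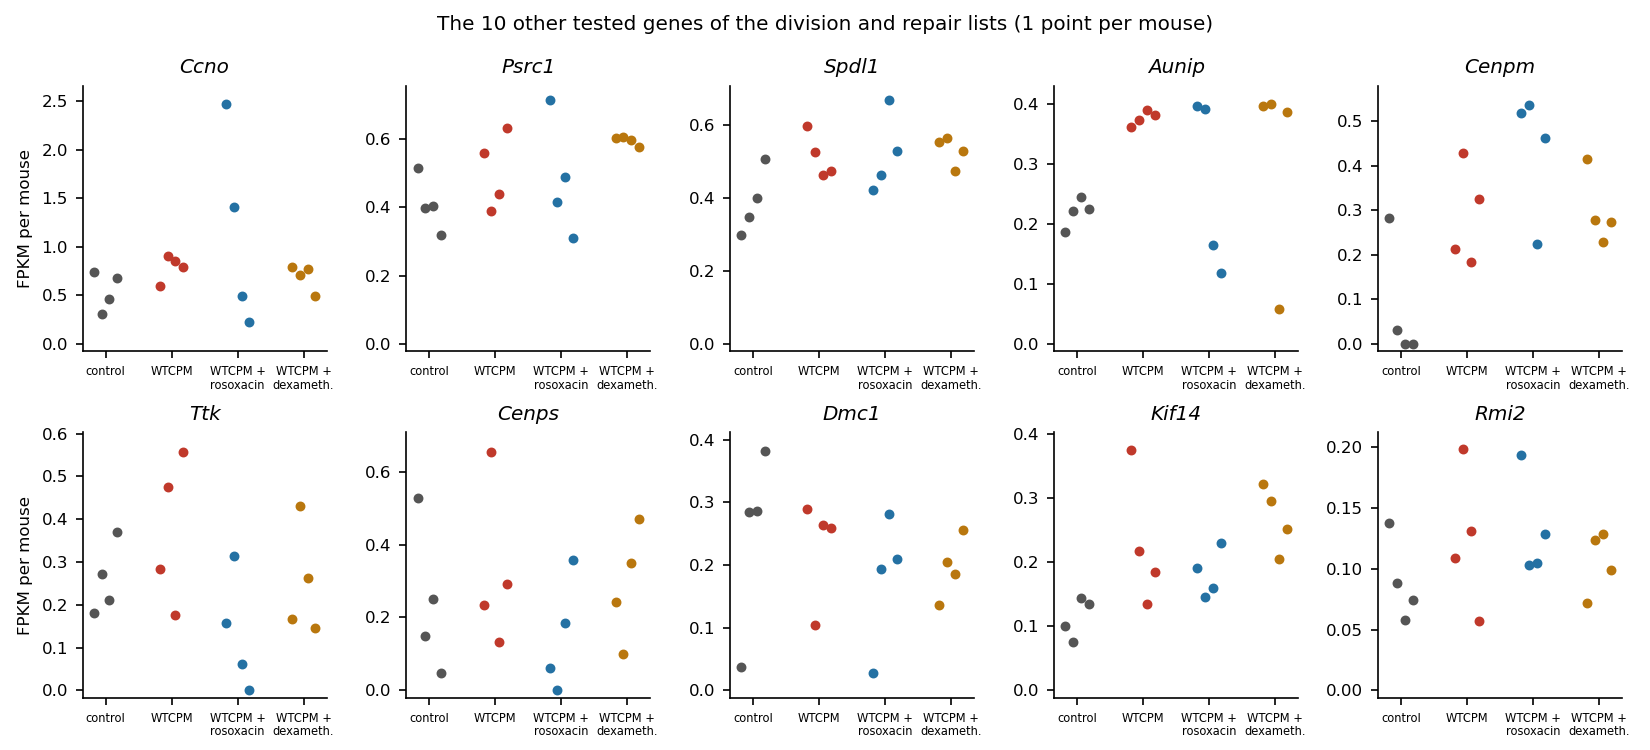
FPKM (y axis, linear) of the 10 tested genes of the division and repair lists in the 4 groups, 1 point per mouse. Aunip has all WTCPM mice (0.361 to 0.39) above all controls (0.187 to 0.244), as did 1.86% of all tested genes. Cenpm has 2 control mice listed at 0 and 1 control at 0.283.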

How the data were processed

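Lung RNA was sequenced on 2 lanes per mouse, which gave 32 lane samples of 16 mice. Both lanes of a mouse carry the same library number. FPKM per transcript is the authors' deposited unit. The submitters' processing notes name FastQC, HISAT, HISAT2 2.2.1, SAMtools 1.12, StringTie 2.1.5, R 4.0.4 and mm10; their order, settings and annotation are not given in these sources. The table holds 186512 transcripts, and the 32 single-lane files hold the same values. FPKM was summed per gene and averaged over lanes.

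The 2749 genes with an Ensembl identifier that averaged 0.1 FPKM or more entered 1 fit of all 4 groups on log2(FPKM + 0.1) with limma 3.58.1 in R 4.3.3 (lmFit, eBayes with trend), with Benjamini-Hochberg adjustment and a threshold of 0.05. P-values rest on the spread between lane-averaged values of mice, which includes lane error, and on limma's moderation of that spread over genes. The procedure was tested on simulated data. Symbols and coordinates came from GENCODE M21 (mm10), promoters from RefSeq (GRCm38.p6), and figures from matplotlib 3.10.9 in Python 3.11.15.

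The members and lists were chosen with earlier results of these data known. Named are the 10 genes, every gene of the 3 pathway lists that passed a comparison, the 4 tested genes with the highest mean in each list, and the 5 named genes nearest to the score. Outside this rule Ttk, Hormad1, Msh4, Spo11 and Ska1 are named, chosen after their values were seen. Alternatives changed the pseudocount, filter, scaling, features, lanes, trend, covariates and samples in the fit, and left out each mouse. It is not known whether replicate numbers pair mice, and weak correlations cannot settle it. Of 20 same-numbered pairs 3 correlated over 0.1, within a range of -0.16 to 0.3, and 7 of 16 mice correlated best with their own number. The epithelial and B cell marker lists are not reported here.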

Additional observations from a re-analysis of the deposited data

Results flagged for a closer look

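In 4 of 40 sets of 4 mice (10 genes in 4 groups), 1 mouse stood apart from the other 3 by Dixon's criterion at the 95% level, which chance alone meets in about 1 of 20 groups. Prr11 measured 0.355 FPKM in dexamethasone mouse 2, where the others lay between 0.3 and 0.307 FPKM. Depdc1a measured 0.0898 FPKM in control mouse 3, against 0.0235 to 0.0333 FPKM in the others. Polq measured 0.543 FPKM in control mouse 4 (others 0.187 to 0.225 FPKM) and 0.735 FPKM in dexamethasone mouse 2 (others 0.292 to 0.323 FPKM). Leaving out control mouse 4 gave a Polq difference of 0.85 between WTCPM and control in place of 0.59.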

How the results depend on the processing

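Over 14 alternatives and 16 leave-one-out fits, the median log2 difference of the 10 genes kept its sign in all 5 comparisons. For WTCPM against control (0.63) it was 0.19 with a pseudocount of 1, 0.81 with a pseudocount of 0.01 and 0.78 in the first lane, and 0.57 to 0.77 with a mouse left out. For rosoxacin against WTCPM (-0.21) it was -0.08 with a pseudocount of 1, -0.01 with median-of-ratios scaling, -0.59 after rescaling to TPM, -0.46 in the second lane and -0.39 with the library number as a covariate, and -0.29 to -0.19 with a mouse left out. For rosoxacin against control (0.48) it was 0.11 and 0.65 with pseudocounts of 1 and 0.01, 0.61 with median-of-ratios scaling, 0.21 with TPM and 0.14 with the library number, and 0.33 to 0.52 with a mouse left out. For dexamethasone against control (0.49) it was 0.14 and 0.72 with those pseudocounts, and 0.41 to 0.59 with a mouse left out. For dexamethasone against WTCPM (-0.15) it was -0.05 with a pseudocount of 1 or quantile normalisation and -0.08 with the library number, and -0.28 to -0.09 with a mouse left out. A larger pseudocount shrinks log2 differences of low genes by construction. The causes of the other shifts were not tested.

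Of the 10 genes, 1 passed with rosoxacin against WTCPM under TPM (Ercc6l), where 260 of 3064 tested genes did. With rosoxacin against control 1 passed when all features were fitted (Dscc1). The share of all features that passed in that fit is not reported here. In every other setting 0 of the 10 genes passed. Of the pathway genes, 1 passed with rosoxacin against WTCPM under TPM (Ttk), as 1 of those 260 genes. For rosoxacin against control 0 in place of 1 (Cenpm) passed with a pseudocount of 1, a mean above 0 FPKM, quantile normalisation, the first lane, the second lane, the library number or the 2 compared groups alone, and 0 to 1 with a mouse left out. For WTCPM and for dexamethasone against control 0 to 1 passed with a mouse left out, 1 being Cenpm without control mouse 1. With a replicate block, 0 of the 10 genes passed in any comparison and their medians were 0.63, -0.21, -0.15, 0.48 and 0.49; Cenpm kept its call (adjusted p = 0.0246), 7 of 16 mice correlated best with their own number, and the calls over all genes were 1, 15, 0, 85 and 0 in place of 0, 15, 0, 91 and 1.

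For WTCPM against control, the sign turned for Troap (-0.73), Ttk (-0.33), Spdl1 (-0.00) and Dmc1 (-0.05) in the first lane, for Rmi2 in the second lane (-0.12), and for Dmc1 also with a pseudocount of 1 (-0.02), quantile normalisation (-0.03), the library number (-0.26), and without control mouse 1 (-0.38) or WTCPM mouse 1 (-0.07), 3 (-0.04) or 4 (-0.03), within a leave-one-out range of -0.38 to 0.24. Depth is unknown, and single lanes listed at 0 show how near these genes lie to the limit of measurement. With the stricter filter of 0.2 FPKM, Depdc1a, Troap and Cenpw give no value.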

Other observations

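Meiotic recombination genes gave a view of the lower end of the table. Hormad1, which organises meiotic chromosome axes, is listed at 0 in all 16 mice. Msh4, a meiotic mismatch repair homologue, measured 0.137, 0.0857, 0.0691 and 0.0544 FPKM in controls and 0.0522, 0.0206, 0.0258 and 0.0615 FPKM with WTCPM, and the groups overlapped. Spo11, which makes meiotic double-strand breaks, ranged from 0 to 0.151 FPKM in the WTCPM mice and from 0.0287 to 0.0608 FPKM in controls. Ska1, a spindle and kinetochore gene under the filter, measured 0, 0, 0 and 0.0488 FPKM in controls and 0.108, 0.227, 0.154 and 0 FPKM with dexamethasone. None of these 4 genes was tested, since their means were below 0.1 FPKM.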
